A study of Homo sapiens with 51 samples.

Results

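The primitive streak and nascent mesoderm factors are the genes through which pluripotent epiblast cells enter the mesoderm. They were followed here as 10 genes: the ligands WNT3 and WNT8A, the T-box factors TBXT, EOMES and TBX6, the homeobox factor MIXL1, the basic helix-loop-helix factors MESP1, MESP2 and MSGN1, and the receptor PDGFRA. What was measured is the accessibility of the chromatin around them, not their RNA. A region belonged to a gene when the nearest end of any RefSeq protein-coding or lncRNA gene, taken from the middle of the region, lay within 50 kb and was an end of that gene. By this rule 63 of 100584 regions belonged to the genes in the day 0 table, 92 of 142087 under BMP4 and 84 of 162317 under SMADi. All 10 genes had a region under BMP4, 9 under SMADi (MESP2 had none) and 8 at day 0 (MESP2 and MSGN1 had none).

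The assay was ATAC-seq, which reads out the DNA that a transposase can reach, in H1, an established human embryonic stem cell line. The study is titled for an RNA with several functions in human embryonic development, and its design took the cells toward mesoderm with BMP4, a bone morphogenetic protein, and toward neuroectoderm with SMADi, a neural induction medium that inhibits SMAD signalling. Samples were lettered a and b, with 51 libraries in all, of which 18 were WT, 17 KO and 16 DATG. The groups were undifferentiated WT, KO and DATG cells at day 0, the same 3 genotypes on each of days 1 to 5 of BMP4, and the same 3 on days 1, 4 and 5 of SMADi. Each group had 2 libraries, but under SMADi only 1 library stood for DATG on day 1, for KO on day 4 and for DATG on day 5. Days 2 and 3 of SMADi were not analysed here. All groups share the H1 background and, before differentiation, growth in mTeSR Plus on Matrigel or Geltrex. DATG in the sample names is written ΔATG in the protocols. They name neither the edited gene nor the number of clones, so no edit could be checked and a line may be 1 clone. Nor do they say whether letters a and b were grown apart. The p-values therefore reflect the spread among these libraries alone, and that spread may be technical.

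As background, WNT3 acts through beta-catenin to start the streak, and BMP4 given to human pluripotent cells brings on WNT and NODAL signalling with it. TBXT (brachyury) marks streak and nascent mesoderm, EOMES acts beside it in early mesoderm and endoderm, and MIXL1 is an early target of NODAL and BMP signals. MESP1 marks the first cardiac mesoderm, and MESP2, MSGN1 and TBX6 belong to presomitic, paraxial mesoderm.

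Levels are counts scaled to a common library size within each table (CPM). A gene sum adds the counts of all regions of a gene, and all regions have the same length. A difference was called when edgeR's quasi-likelihood test gave a Benjamini-Hochberg adjusted p under 0.05 over all genes, or all regions, of its table, and words of direction such as higher or fell refer to called differences. Differences are on the log2 scale with the standard error (SE). Because each table has its own regions, nothing was tested across day 0, BMP4 and SMADi. Total counts per library ran from 4616521 to 7516259 at day 0, from 4019778 to 13850448 under BMP4 and from 7086918 to 23252871 under SMADi. Each bulk library pools many cells, so fewer cells with an open region and a less open region in each cell cannot be told apart. Reads amplified by PCR carried no molecular identifiers and need not be separate molecules, and small gene sums have more counting error: TBXT under BMP4 rested on 1 region and MSGN1 and MESP2 on 1 region each, against 27 regions of WNT3. The rule gives many regions in or beside the genes to neighbouring lncRNAs. A further 34 regions under BMP4 had a member as their nearest protein-coding gene but a lncRNA end nearer still, among them 11 of TBXT, 11 of EOMES and 5 of MIXL1. Some such regions lie inside the gene. At day 0 those 657 and 305 bp from the start of TBXT, inside it, were given to the lncRNA LNCDAT. They read 15.3 and 12.3 CPM in WT on average, against 4.54 and 3.77 in the regions kept for TBXT.

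Promoter sequences are shown for 4 of the genes whose promoter overlapped a region under BMP4. Those of EOMES, of both starts of PDGFRA and of 1 start of TBXT also overlapped a region and are not shown. Under BMP4 the start of MESP2 and that of MIXL1 were less accessible in KO than in WT, while TBX6 and WNT3 passed no genotype test at theirs. This holds for BMP4 only. Under SMADi the start of TBX6 and 2 of the 4 regions of MIXL1 were called higher in KO, as given below. Sequences are from RefSeq (GRCh38.p14), 5′ to 3′ on the gene's strand, with 250 bases before and 50 after the start, and capitals mark the only motif match found in these 4. They lie at chr15:89776082-89776381 (MESP2, plus strand), chr1:226223414-226223713 (MIXL1, plus strand), chr16:30091875-30092174 (TBX6, minus strand) and chr17:46818643-46818942 (WNT3, minus strand).
MESP2 promoter: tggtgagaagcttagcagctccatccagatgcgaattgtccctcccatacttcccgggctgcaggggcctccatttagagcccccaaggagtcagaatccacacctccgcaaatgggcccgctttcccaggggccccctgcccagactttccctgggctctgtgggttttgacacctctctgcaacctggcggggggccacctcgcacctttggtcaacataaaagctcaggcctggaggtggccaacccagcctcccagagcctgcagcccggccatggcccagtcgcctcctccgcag
MIXL1 promoter: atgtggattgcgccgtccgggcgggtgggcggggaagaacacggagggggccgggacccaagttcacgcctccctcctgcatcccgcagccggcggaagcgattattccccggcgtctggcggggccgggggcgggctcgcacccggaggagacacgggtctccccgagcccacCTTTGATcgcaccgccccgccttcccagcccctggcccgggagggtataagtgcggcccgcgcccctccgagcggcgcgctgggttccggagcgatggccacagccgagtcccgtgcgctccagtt
TBX6 promoter: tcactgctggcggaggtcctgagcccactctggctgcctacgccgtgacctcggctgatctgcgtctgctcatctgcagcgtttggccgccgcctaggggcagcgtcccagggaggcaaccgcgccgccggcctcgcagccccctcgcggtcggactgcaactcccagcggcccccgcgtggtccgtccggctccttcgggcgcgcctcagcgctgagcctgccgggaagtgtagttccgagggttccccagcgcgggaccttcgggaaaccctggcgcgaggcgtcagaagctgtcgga
WNT3 promoter: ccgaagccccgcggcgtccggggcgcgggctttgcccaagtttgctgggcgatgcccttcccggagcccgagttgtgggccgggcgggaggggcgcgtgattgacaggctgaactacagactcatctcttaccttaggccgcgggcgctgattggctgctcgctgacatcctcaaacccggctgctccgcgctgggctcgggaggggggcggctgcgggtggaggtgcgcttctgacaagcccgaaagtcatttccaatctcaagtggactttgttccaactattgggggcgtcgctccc
The search covered both strands for the TCF/LEF letters ATCAAAG, the T-box letters AGGTGTGA, the GATA letters AGATAA, the BMP SMAD letters GGCGCC and the SMAD letters GTCTAGAC. Over 35116 RefSeq promoters of the same length these were found in 2.62%, 0.98%, 10.3%, 19.2% and 0.202%. Promoters were given for 9 of the 10 genes, 11 windows in all with 2 starts each for TBXT and PDGFRA, and none for MESP1. The capitals in MIXL1 are the TCF/LEF letters on the opposite strand. Among the other windows, that of MSGN1 held the GATA letters and the second one of PDGFRA held the BMP SMAD letters. A match describes letters only and does not show binding. MIXL1 and TBX6 have GC-rich windows (73.3% and 71.3% G or C), WNT3 has 65.7% and MESP2 has 63%, while that of MSGN1, with 42.3%, overlapped no region under BMP4.

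In undifferentiated cells the chromatin of the 8 measured genes passed no test between genotypes. The share of all gene sums called was 0.188% for KO against WT and 0.358% for DATG against WT, and of all regions 0.0855% and 0.205%. No gene and none of the 63 regions was called in either comparison by edgeR or by DESeq2's Wald test. At an unadjusted p under 0.05 edgeR gave 1 of the 8 genes in KO and 0 in DATG, and 2523 and 2706 of all 27631 gene sums. In simulated counts at this depth a difference of 1 on the log2 scale was recovered in 96% of genes and one of 0.5 in 48%. The changed genes all had a mean count above 50, and 1 spread was set for all genes. WNT8A, a ligand of the early streak, had the lowest unadjusted value in KO, with 40.3 and 35.9 CPM in the WT libraries against 29.5 and 31.2 in KO and 33.1 and 34.5 in DATG. Both mutant pairs lay below both WT libraries, and the KO difference of -0.34 ± 0.13 (SE) had an adjusted p of 0.349 by edgeR. Per region, WT cells were most open at TBX6 (17.4 CPM), then MESP1 (11.3), MIXL1 (9.47), EOMES (8.64), WNT8A (7.62), PDGFRA (7.32) and WNT3 (7.23), and least at TBXT (4.47). The TBXT value leaves out the more open regions inside the gene that the rule gives to LNCDAT. The ranges of the 2 libraries overlapped for MIXL1 with EOMES, for WNT8A with PDGFRA and for PDGFRA with WNT3. On the marker side, all 8 pluripotency genes tested (POU5F1, NANOG, SOX2 and others) had counts in every day 0 library, with a summed level of 559.5 to 612.4 CPM. Chromatin around neural and endoderm markers was open too (739.3 to 810.2 and 517.2 to 623.7 CPM), so this sum does not set cell types apart.

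Under BMP4 the WT cells opened chromatin around MESP1, TBX6, MSGN1 and PDGFRA and closed it around WNT8A and TBXT between day 1 and day 5. That is 4 of 10 genes higher and 2 lower at day 5, where 47.6% of all gene sums were called. The calls of MESP1, MSGN1, PDGFRA and TBXT were lost under other links of regions to genes, as given below. From day 1 to day 2 EOMES, MESP1, MESP2, TBX6 and WNT3 rose and none fell, where 19.8% of gene sums were called. From day 2 to day 5 MSGN1 rose and EOMES and WNT8A fell, where 20.5% were called. The median difference of the 10 from day 1 to day 5 was 0.18, against -0.02 over all genes.

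**Figure D1:**
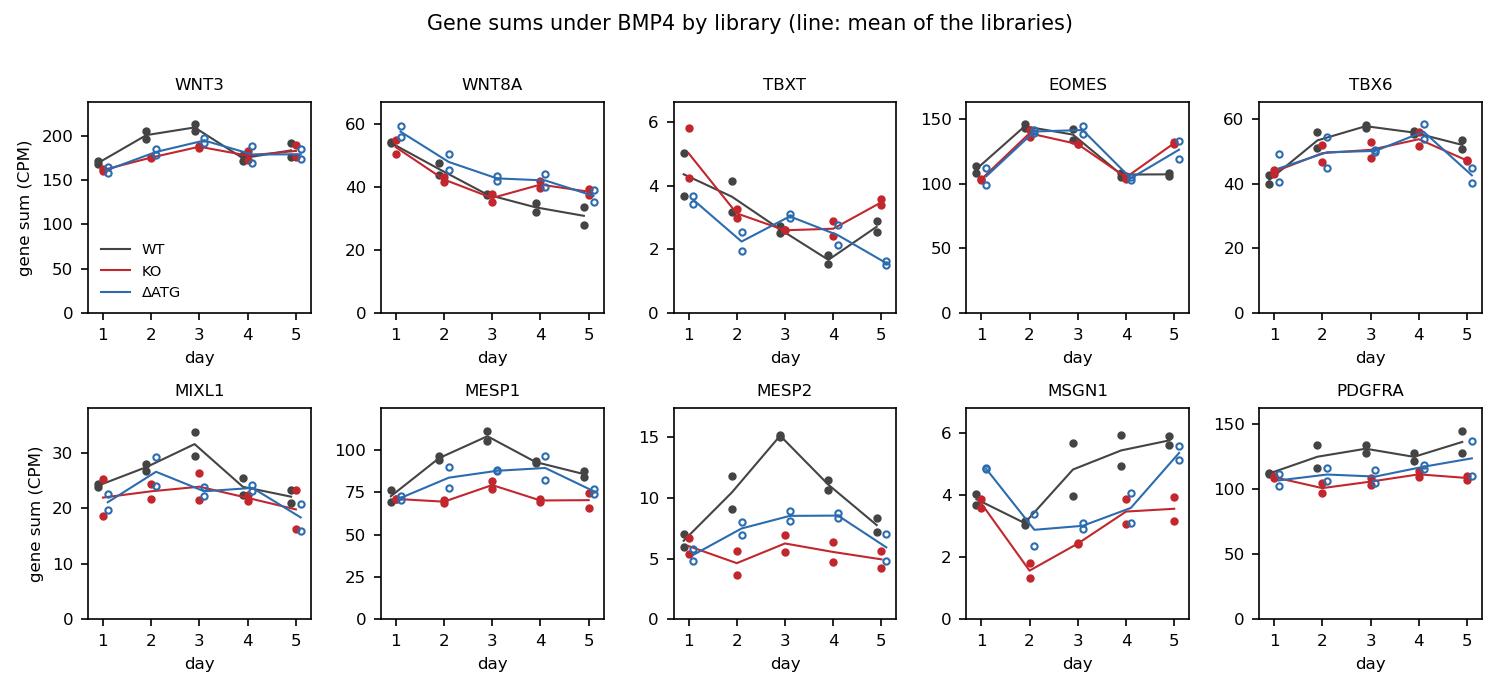
Gene sums (CPM, y axis from 0) of the 10 genes against the day of BMP4 (x axis), with 1 point per library and lines through the means of WT (grey), KO (red) and ΔATG (blue, open points). MESP1 and MESP2 peak on day 3 in WT and stay lower in KO, while WNT8A falls with time in WT and EOMES is high on days 2 and 3 in each genotype and again on day 5 in KO and ΔATG.

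WNT8A showed the steepest decline of the 10. Its gene sum of 9 regions read 53.8 and 54.0 CPM in the WT libraries of day 1, 47.5 and 43.6 on day 2, 37.4 and 37.5 on day 3, 32.1 and 34.8 on day 4 and 27.9 and 33.7 on day 5. Every day 5 library lay below every library of days 1, 2 and 3, and the fall from day 1 was -0.79 ± 0.09 (adjusted p = 2.34e-10, edgeR). WNT3, whose protein starts the streak, was highest in WT on day 3 (205.3 and 213.5 CPM) against 167.6 and 171.0 on day 1. Its rise by day 2 was 0.24 ± 0.06 (adjusted p = 0.00204) and its day 5 difference from day 1 of 0.12 ± 0.06 was not called (adjusted p = 0.0825), though scaling over all regions gives 0.20 and a call (adjusted p = 0.00451).

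EOMES behaved as an early pulse in WT, as did the single region of MESP2 a day later. EOMES, with 15 regions, had 113.9 and 108.5 CPM on day 1, 145.7 and 142.7 on day 2, 133.8 and 141.8 on day 3, 108.5 and 105.3 on day 4 and 106.0 and 108.2 on day 5. The libraries of days 2 and 3 lay above all others, with a rise of 0.37 ± 0.06 by day 2 (adjusted p = 2.24e-05) and a fall of -0.43 ± 0.07 from day 2 to day 5 (adjusted p = 7.33e-07). With only the EOMES regions within 1 kb of a gene end, neither passed the threshold (0.16 and -0.18). MESP2, which patterns the forming somites, went from 7.01 and 5.93 CPM on day 1 through 9.09 and 11.8 on day 2 to 15.0 and 15.2 on day 3, then 10.7 and 11.5 on day 4 and 7.21 and 8.32 on day 5. Its day 3 libraries were above all others, and the rise by day 2 was 0.67 ± 0.20 (adjusted p = 0.0148; DESeq2's Wald test, 0.0797).

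MESP1 and TBX6 rose early and stayed higher to day 5. MESP1, the earliest cardiac mesoderm factor, had 69.0 and 76.3 CPM on day 1, 94.1 and 96.3 on day 2, 111.0 and 105.2 on day 3, 93.5 and 92.2 on day 4 and 84.1 and 87.3 on day 5. All later libraries lay above both day 1 libraries, and the day 5 difference was 0.24 ± 0.08 (adjusted p = 0.00661). The MESP1 call was lost without WT day 1 replicate a (0.16) or WT day 5 replicate b (0.21), and with only regions within 1 kb (0.11). TBX6, a paraxial mesoderm factor, had 39.8 and 42.5 CPM on day 1 and 53.3 and 50.6 on day 5, with no overlap and a difference of 0.34 ± 0.09 (adjusted p = 0.00228, lost without WT day 1 replicate a). PDGFRA, the receptor carried by early mesoderm cells, had 112.6 and 111.3 CPM on day 1 and 127.5 and 144.9 on day 5, a rise of 0.29 ± 0.07 (adjusted p = 0.000695). With PDGFRA regions within 10 kb only, the difference was -0.01 and not called, and without WT day 5 replicate b it was 0.19 and not called.

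The remaining 3 genes had small or uncertain changes in WT. TBXT, with a single region of 1.53 to 5.03 CPM in the WT libraries, fell by 0.71 from day 1 to day 5 (SE 0.27, adjusted p = 0.0275). With the 11 further regions that lie nearer the end of a lncRNA the same difference was -0.10 and not called, and the rise by day 2 became 0.31 (adjusted p = 0.00402), so the direction for TBXT depends on which regions are given to it. MSGN1, a presomitic factor, had 4.05 and 3.68 CPM on day 1, 3.03 and 3.16 on day 2 and 5.61 and 5.91 on day 5. It rose by 0.57 ± 0.24 over days 1 to 5 (adjusted p = 0.0415) and by 0.90 ± 0.28 from day 2 (adjusted p = 0.0154), and neither was called by DESeq2's Wald test or with the 3 further MSGN1 regions. MIXL1 was highest on day 3 (33.7 and 29.5 CPM) and had 23.8 and 24.5 CPM on day 1 against 23.2 and 21.0 on day 5, a difference that was not called (-0.13 ± 0.13, adjusted p = 0.428).

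Levels can be set side by side per region, since all regions have 1 length. In WT on day 1 of BMP4, TBX6 led with 10.3 CPM per region, followed by MESP1 (8.07), EOMES (7.41), MESP2 (6.47), WNT3 (6.27), MIXL1 (6.03), WNT8A (5.99), PDGFRA (5.33), TBXT (4.36) and MSGN1 (3.86). The libraries overlapped for MESP2 with WNT3, MIXL1 with WNT8A and TBXT with MSGN1. On day 3 MESP2 led with 15.1 CPM, above TBX6 with 14.4, and TBXT was last with 2.62. By day 5 TBX6 led again (13.0), WNT8A (3.42) and TBXT (2.71) were last, and MESP2, EOMES and WNT3 (7.77, 7.14 and 6.80) followed MESP1 (9.52) with overlapping neighbours.

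Across the 10 genes under BMP4, KO cells were less open than WT cells around MESP2, MSGN1, MESP1, PDGFRA, MIXL1 and WNT3, and around none more open. The background was 26.5% of gene sums called for KO against WT over the mean of days, and 6 of 10 genes fell. DATG was lower than WT at MESP2, MESP1, MIXL1 and PDGFRA and higher at WNT8A, 5 of 10 genes where 13.0% of gene sums were called. The median difference of the 10 was -0.15 in KO and -0.15 in DATG, against 0.00 over all genes in both. Both comparisons share the WT libraries, so the 2 sets of values stand side by side and are not independent. KO differed from DATG at 1 gene, MESP1, where 2.64% of gene sums were called.

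**Figure D2:**
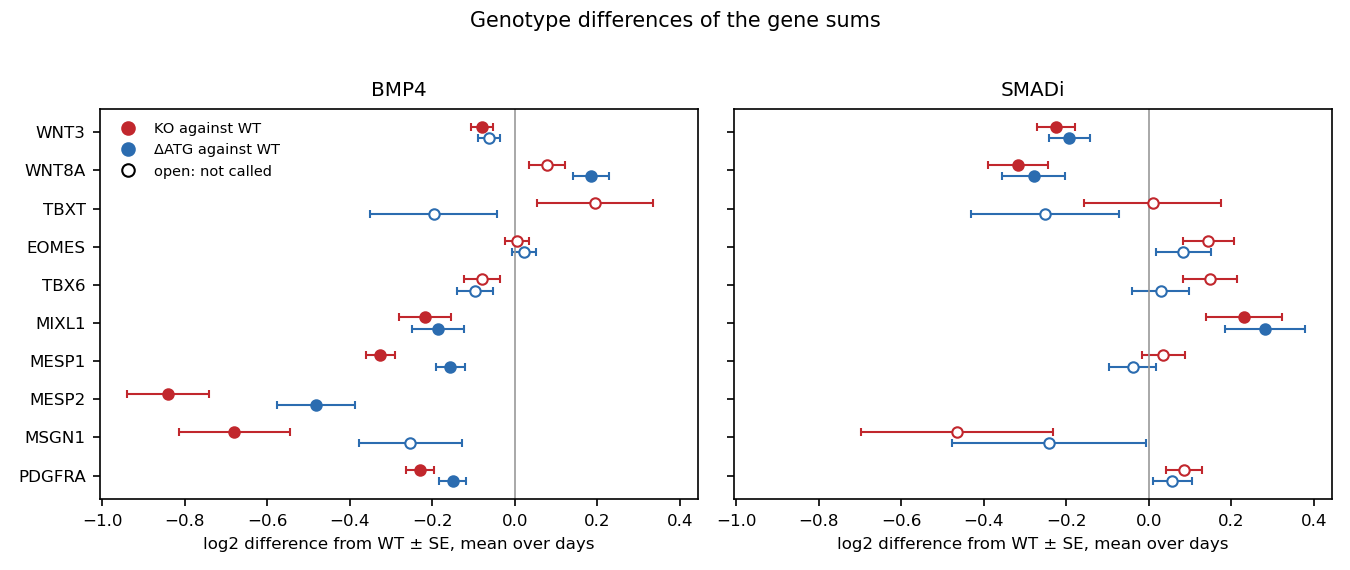
Differences of the gene sums from WT (log2, x axis, mean over days, bars ± SE) for each gene under BMP4 (left) and SMADi (right), KO in red and ΔATG in blue, with open points where the difference was not called. MESP2 (-0.84) and MSGN1 (-0.68) in KO lie farthest from 0 under BMP4, and MIXL1 lies below 0 there and above 0 under SMADi.

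By the rule, MESP2 had the largest difference among the 10, resting on 1 region. In KO its single region, which begins before the annotated start and covers it, read 5.38 and 6.68 CPM on day 1, 3.63 and 5.61 on day 2, 6.93 and 5.56 on day 3, 4.71 and 6.37 on day 4 and 5.64 and 4.23 on day 5. DATG read 4.84 and 5.77, 8.01 and 6.95, 8.13 and 8.92, 8.31 and 8.78, and 4.82 and 7.03 CPM on the same days. From day 2 to day 5 both KO libraries of a day lay below both WT libraries, and the day 3 peak of WT was not matched in either line. The mean difference from WT was -0.84 ± 0.10 in KO (adjusted p = 3.98e-10) and -0.48 ± 0.09 in DATG (adjusted p = 0.000172, edgeR). KO against DATG was -0.36 ± 0.11 and not called (adjusted p = 0.0585). With the 3 further regions nearer a lncRNA end included, the KO difference was -0.20. Of those 3 regions alone 1 was lower in KO and 0 higher, with a median difference of 0.05 (background 21.5% of regions). At day 0 a region inside MESP2, 411 bp from its start, read 29.6 CPM in WT on average (chr15:89776643-89776843). The rule gave it to the lncRNA LOC124903550, and it passed neither genotype test.

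MESP1, a neighbour of MESP2 on the same chromosome, was lower in both lines. KO read 71.0 and 71.1 CPM on day 1, 70.4 and 68.4 on day 2, 77.0 and 81.5 on day 3, 69.3 and 71.0 on day 4 and 74.8 and 65.8 on day 5. DATG read 73.0 and 70.2, 89.9 and 77.3, 88.0 and 87.3, 96.4 and 82.3, and 74.2 and 77.1 CPM. KO lay below both WT libraries on each of days 2 to 5 and below both DATG libraries on days 2, 3 and 4. The difference from WT was -0.33 ± 0.04 in KO (adjusted p = 3.58e-11) and -0.16 ± 0.04 in DATG (adjusted p = 0.00117), and KO was lower than DATG by -0.17 ± 0.04 (adjusted p = 0.00221). With only the 2 regions within 1 kb of a gene end none of the 3 was called, and the KO difference from WT was -0.08.

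MSGN1 and MIXL1 were lower in KO, MIXL1 also in DATG. MSGN1 read 1.31 to 3.95 CPM in the 10 KO libraries (median 3.11), 3.03 to 5.94 in WT and 2.37 to 5.57 in DATG, so the ranges overlapped across days. KO was lower by -0.68 ± 0.13 (adjusted p = 5.93e-05), and DATG had -0.25 ± 0.12 (adjusted p = 0.184). This single region lies 4492 bp beyond the end of the gene, and with the 3 further regions nearer a lncRNA end the KO value turned to 0.09 and was not called. MIXL1 read 16.4 to 26.3 CPM in KO, 15.96 to 29.2 in DATG and 21.0 to 33.7 in WT, with differences of -0.22 ± 0.06 in KO (adjusted p = 0.00602) and -0.19 ± 0.06 in DATG (adjusted p = 0.0369). The DATG call of MIXL1 was not made by DESeq2's Wald test (adjusted p = 0.143). With its 5 further regions MIXL1 in KO read -0.42.

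PDGFRA was lower in both lines, WNT3 was lower in KO and WNT8A was higher in DATG. PDGFRA in KO read 108.4 and 109.9 CPM on day 1, 96.7 and 104.7 on day 2, 108.4 and 103.0 on day 3, 109.0 and 113.6 on day 4 and 110.3 and 106.7 on day 5, and lay below both WT libraries on every day. DATG overlapped WT on days 2 and 5, touched it on day 1 and ran from 102.0 to 136.9 CPM. The differences were -0.23 ± 0.03 in KO (adjusted p = 1.61e-07) and -0.15 ± 0.03 in DATG (adjusted p = 0.000984). The 1 region within 1 kb of an end of PDGFRA gave 0.19 in KO and 0.01 in DATG, neither called. WNT3 in KO was lower by -0.08 ± 0.03 (adjusted p = 0.0184), with 160.6 to 189.4 CPM against 167.6 to 213.5 in WT, a call lost without KO day 4 replicate a, KO day 5 replicate a or WT day 5 replicate b. WNT8A was higher in DATG by 0.18 ± 0.04 (adjusted p = 0.00233), with 35.2 to 59.1 CPM against 27.9 to 54.0 in WT. In KO the value was 0.08 ± 0.04 (adjusted p = 0.204), and the 4 regions within 1 kb of the ends of WNT8A gave -0.29 in KO (adjusted p = 0.00963) and -0.02 in DATG.

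TBXT, EOMES and TBX6 passed no test over the mean of days in either line. TBXT read 2.42 to 5.80 CPM in KO, 1.51 to 3.67 in DATG and 1.53 to 5.03 in WT, with differences of 0.19 ± 0.14 (adjusted p = 0.344) and -0.20 ± 0.15 (adjusted p = 0.464). With its 11 further regions TBXT was lower in both lines, -0.20 in KO (adjusted p = 5.86e-05) and -0.16 in DATG (adjusted p = 0.0031). EOMES read 103.1 to 141.5 CPM in KO and 99.1 to 144.7 in DATG against 105.3 to 145.7 in WT, with differences of 0.00 ± 0.03 and 0.02 ± 0.03. TBX6 read 43.1 to 55.9 CPM in KO and 39.8 to 58.2 in WT, with -0.08 ± 0.04 in KO (adjusted p = 0.172) and -0.10 ± 0.04 in DATG (adjusted p = 0.14).

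By day, the lower values of KO began on day 2. On day 1 no gene was called in KO (background 0.113% of gene sums) or in DATG (0.0828%), by edgeR or by DESeq2, and 0 of the 10 had an unadjusted p under 0.05 in either. On day 2 MESP2 (-1.16 ± 0.25), MESP1 (-0.45 ± 0.08) and PDGFRA (-0.31 ± 0.08) fell in KO (background 2.34%). On day 3 MESP2 (-1.26 ± 0.19), MSGN1 (-1.02 ± 0.28), MESP1 (-0.45 ± 0.08), MIXL1 (-0.43 ± 0.13) and PDGFRA (-0.31 ± 0.07) fell (background 6.42%). On day 4 MESP2 (-0.998 ± 0.21) and MESP1 (-0.40 ± 0.08) fell (background 5.92%). On day 5 the background reached 20.9%, MSGN1 (-0.70 ± 0.26), MESP2 (-0.66 ± 0.23), PDGFRA (-0.33 ± 0.07) and MESP1 (-0.29 ± 0.08) fell, and WNT8A (0.31 ± 0.10) and EOMES (0.29 ± 0.06) rose. DATG was called on days 3 and 5 only. On day 3 MESP2 (-0.82 ± 0.18), MIXL1 (-0.46 ± 0.13), MESP1 (-0.31 ± 0.07) and PDGFRA (-0.27 ± 0.07) fell in DATG (background 2.33%), and on day 5 EOMES rose by 0.22 ± 0.07 (background 7.03%). With regions within 1 kb only, EOMES in DATG on day 5 turned to -0.0377, PDGFRA in KO to 0.39 on day 2 and 0.17 on day 5, and MESP1 in KO on day 5 to 0.0380. With the further regions nearer a lncRNA end, MSGN1 in KO turned to 0.18 on day 3 and 0.25 on day 5. Days 2 and 4 had no member called in DATG (backgrounds 0.0729% and 0.884%), by edgeR or by DESeq2, with 5 and 2 of the 10 at an unadjusted p under 0.05. Of the 100 values by gene, line and day 21 were called, against 10 by DESeq2's Wald test and 14 to 21 with 1 library left out.

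EOMES ended the BMP4 course differently in KO. The KO libraries of day 5 read 132.1 and 130.4 CPM against 106.0 and 108.2 in WT and 119.2 and 133.1 in DATG, so both mutant pairs lay above both WT libraries. On day 1 the KO libraries (103.1 and 103.4) lay below those of WT (113.9 and 108.5). The day 5 against day 1 change of KO minus that of WT was 0.40 ± 0.09 (adjusted p = 0.00409), and EOMES was the only one of the 10 called in this comparison (background 6.49% of gene sums). The 6 EOMES regions within 1 kb of an end gave 0.11 (adjusted p = 0.76), and DESeq2's Wald test called EOMES as well. In DATG the same comparison called none of the 10 (background 0.262%), by edgeR or by DESeq2, with 2 at an unadjusted p under 0.05, and EOMES had 0.30 ± 0.09 (adjusted p = 0.134).

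Single regions show where the gene sums moved. Under BMP4, 16 of the 92 regions rose and 12 fell in WT from day 1 to day 5 (background 34.9% of regions called). KO was lower at 28 and higher at 4 (background 21.5%), and DATG lower at 9 and higher at 2 (background 9.33%; 5 regions called by DESeq2's Wald test). In KO 7 of the 9 regions of MESP1, 8 of the 21 of PDGFRA and 6 of the 27 of WNT3 were lower, against 1 of the 15 of EOMES. Within 1 kb of a gene end 9 of 26 regions were lower in KO and 0 higher, and farther away 19 of 66 were lower and 4 higher.

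**Figure D3:**
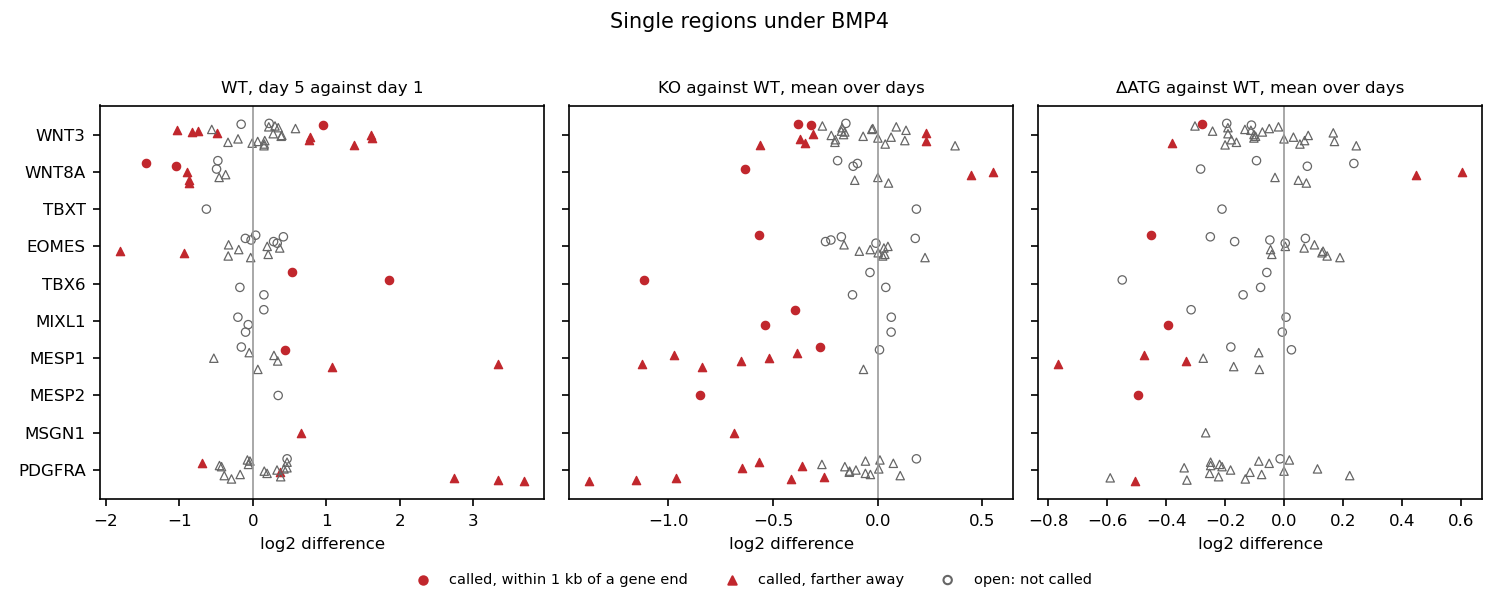
Differences of single regions under BMP4 (log2, x axis) by gene for WT day 5 against day 1, KO against WT and ΔATG against WT, with filled symbols where called, circles within 1 kb of a gene end and triangles farther away. In WT the regions that rose most belong to PDGFRA and MESP1, and in KO nearly all called regions lie left of 0.

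The region with the largest rise in WT among the 92 lay 31831 bp before the start of PDGFRA, at chr4:54197362-54197562, outside the gene. In WT it read 1.23 and 0.969 CPM on day 1, 2.08 and 2.71 on day 2, 6.18 and 5.33 on day 3, 9.50 and 8.56 on day 4 and 13.2 and 15.6 on day 5. KO read 1.18 and 0.797, 1.02 and 1.20, 1.76 and 2.98, 2.25 and 1.39, and 2.68 and 4.53 CPM, and DATG 1.28 and 1.07, 2.81 and 2.60, 2.83 and 3.13, 4.52 and 3.93, and 9.76 and 7.70. From day 3 on, WT lay above DATG and, on days 4 and 5, DATG above KO, with no overlap. The WT rise was 3.68 ± 0.26 (adjusted p = 4.40e-23), and the mean difference from WT was -1.38 ± 0.16 in KO (adjusted p = 5.24e-11) and -0.50 ± 0.14 in DATG (adjusted p = 0.0130, edgeR over regions). The region nearest the annotated start of PDGFRA, 213 bp away, read 1.72 to 3.37 CPM in WT and was not called in KO (0.19 ± 0.15) or DATG (-0.01 ± 0.16).

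MESP1 had a region of the same kind 7328 bp beyond its higher-numbered end, at chr15:89758477-89758677, outside the gene. It read 0.882 and 0.215 CPM in WT on day 1 and 9.34 and 7.99 on day 3, and on day 5 it read 5.82 and 6.16 in WT, 1.27 and 2.20 in KO and 3.25 and 3.23 in DATG. The 3 genotypes did not overlap on day 5, with WT highest and KO lowest. The WT rise of this MESP1 region was 3.34 ± 0.37 (adjusted p = 7.45e-13), with -1.13 ± 0.19 in KO and -0.77 ± 0.19 in DATG. The MESP1 region with the smallest p in KO lay inside the annotated gene, at chr15:89747929-89748129, and read 3.11 to 6.48 CPM in KO against 5.38 to 12.0 in WT and 4.85 to 8.43 in DATG. Its differences were -0.97 ± 0.11 in KO (adjusted p = 3.29e-12) and -0.48 ± 0.10 in DATG (adjusted p = 0.000439). The most open region of MESP1, 372 bp inside its higher-numbered end, read 18.3 to 28.3 CPM in WT and 20.4 to 28.5 in KO and passed neither genotype test (0.01 ± 0.06 and 0.02 ± 0.06). The reference tables give no strand for MESP1, so its start is not named here.

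TBX6 had 2 regions that behaved unlike each other. That at its start (chr16:30091896-30092096, overlapping the promoter shown) had the highest mean WT level of the 92, with 25.3 to 40.8 CPM in WT, and rose from day 1 to day 5 by 0.53 ± 0.13 with no genotype call (-0.04 ± 0.06 in KO, -0.06 ± 0.06 in DATG). That at its other end (chr16:30085918-30086118, inside the gene, 225 bp from the end) read 7.06 and 6.14 CPM in WT on day 3 against 2.04 and 1.58 in KO and 2.83 and 2.50 in DATG. WT lay above both lines there, and the mean difference was -1.12 ± 0.22 in KO (adjusted p = 2.92e-05) and -0.55 ± 0.20 in DATG (adjusted p = 0.0621).

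Under BMP4 the starts of MESP2, MIXL1 and EOMES were less open in KO, and that of WNT3 was not called. The MESP2 region (chr15:89776236-89776436) had -0.85 ± 0.10 in KO and -0.50 ± 0.10 in DATG. At MIXL1 the region on the promoter shown (chr1:226223536-226223736) read 4.23 to 8.81 CPM in WT and 3.49 to 6.08 in KO, with -0.39 ± 0.11 in KO (adjusted p = 0.00545) and -0.32 ± 0.11 in DATG (adjusted p = 0.0568). A second MIXL1 region, 390 bp before the start, had -0.54 ± 0.11 and -0.39 ± 0.11. At EOMES the region 7 bp from the start (chr3:27722606-27722806) read 1.75 to 4.78 CPM in KO and 2.55 to 4.78 in DATG against 3.06 to 7.05 in WT, with -0.57 ± 0.13 in KO (adjusted p = 0.000489) and -0.45 ± 0.13 in DATG (adjusted p = 0.0139). The most open EOMES region, 1680 bp inside the start, read 30.9 and 23.9 CPM in WT on day 2 against 13.6 and 15.5 on day 1 and was called in neither line (0.05 ± 0.07 and 0.00 ± 0.07). The start of WNT3 (chr17:46818721-46818921) had -0.15 ± 0.08 in KO and -0.20 ± 0.08 in DATG, while a region inside WNT3 (chr17:46785786-46785986) rose in WT by 1.38 ± 0.19 and was lower in KO by -0.56 ± 0.10 (adjusted p = 3.53e-06).

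WNT8A held the only pair of regions higher in both lines. At chr5:138095639-138095839, 3374 bp past its end, the WT libraries read 5.14 to 8.83 CPM, KO 7.51 to 10.8 and DATG 7.50 to 11.2, with 0.44 ± 0.09 in KO (adjusted p = 0.000106) and 0.45 ± 0.09 in DATG (adjusted p = 0.000413). A neighbour at chr5:138095167-138095367 had 0.55 ± 0.12 and 0.60 ± 0.12. The region at the start of WNT8A, 111 bp away, was called in neither line.

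Among regions that the rule gives to lncRNAs, 13 of 34 were lower and 3 higher in KO under BMP4 (background 21.5% of regions), and 10 were lower and 2 higher in DATG (background 9.33%). One beside TBXT, 26745 bp before its start and nearest the lncRNA LNCDAT (chr6:166195300-166195500), rose in WT by 2.30 ± 0.28 (adjusted p = 1.76e-11) and was lower in KO by -1.29 ± 0.14 and in DATG by -0.76 ± 0.13. One beside EOMES, nearest LINC02084 (chr3:27685560-27685760), rose by 2.71 ± 0.39 and was lower in KO by -1.03 ± 0.23. These 2 were chosen after their values were seen.

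Other genes of the pathway moved in both directions in KO under BMP4, where 26.5% of all gene sums were called (13.0% in DATG). Of 20 signal genes 3 were higher and 4 lower, among them the ligand NODAL (-0.27 ± 0.04) and its inhibitor LEFTY2 (-0.15 ± 0.05) lower and WNT3A (0.14 ± 0.03) and FZD7, a WNT receptor, (0.13 ± 0.03) higher. Of 21 tested genes of streak and nascent or presomitic mesoderm 4 were higher and 6 lower, with APLNR, a receptor of early mesoderm cells, at -1.29 ± 0.09 and MEOX1, a somite factor, at -0.28 ± 0.06, against DLL1 at 0.17 ± 0.03 and GSC at 0.17 ± 0.05. Of 6 genes of the PDGF list PDGFRB (-0.42 ± 0.03) and PDGFA (-0.16 ± 0.05) were lower and none higher. The median difference was 0.01, -0.01 and -0.04 for the 3 lists, against 0.00 over all genes. In DATG the same lists had 2 higher and 2 lower, 1 higher and 3 lower, and 0 higher and 1 lower, with APLNR at -0.76 ± 0.09 and PDGFRB at -0.28 ± 0.03.

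Markers of other states moved with the genotype under BMP4, and their part in the differences above was not tested. Of 8 pluripotency genes 7 were higher in KO and 4 in DATG, and of 8 neural genes 7 and 6 were higher, with none lower (background 26.5% of gene sums called in KO and 13.0% in DATG). Summed over the list, pluripotency genes read 505.5 to 654 CPM in WT, 597.7 to 691.2 in KO and 573.9 to 677.5 in DATG, and neural genes 639.3 to 758.8, 720.7 to 835.7 and 693.8 to 801.3. Of 10 amnion and trophoblast genes 1 was higher and 2 lower in KO (HAND1 and ISL1 lower), and of 7 endoderm genes 2 were higher and 2 lower. No listed marker was at 0 in any library.

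Patterns most like those of 3 of the genes were listed over the 15 groups of BMP4 genotype and day, as a description without a test. For EOMES these were EN2, SGK1 and NR4A3 (Pearson r of 0.956, 0.952 and 0.949), for MESP1 CFAP53, APOBEC3D and the lncRNA LOC124901958 (0.938, 0.934 and 0.931), and for TBXT PLAGL2, INSYN1 and ZNF22 (0.906, 0.873 and 0.871). The points share libraries, days and genotypes.

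Under SMADi 1 KO library stood apart from its replicate. At 20 regions of the whole table every other KO library of days 4 and 5 was at least 1 log2 unit above every DATG library, and at 14 regions the reverse held. The library labelled KO day 1 replicate b was nearer the DATG mean at 20 of 20 and 14 of 14 of these, while KO day 1 replicate a was nearer the KO mean at 19 of 20 and 12 of 14. The WT libraries of day 1 were each nearer DATG at 6 of 20, and at 14 and 13 of the 14, so at the second set replicate b lay on the same side as WT. Tests of KO under SMADi are given with and without this library, except where another scaling, link or tool or another left-out library is named.

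The WT cells closed chromatin around TBXT, MIXL1, EOMES and WNT8A from day 1 to day 5 of SMADi. That is 4 of 9 genes lower and none higher, close to the share of all gene sums called, 43.9%. TBXT, here with 3 regions, read 5.51 and 8.20 CPM on day 1 and 3.25 and 4.04 on day 5, a difference of -0.87 ± 0.28 (adjusted p = 0.0132). EOMES read 74.9 and 84.8 CPM against 53.0 and 65.5 (-0.41 ± 0.10, adjusted p = 0.00187), and MIXL1 25.5 and 21.0 against 18.2 and 14.9 (-0.52 ± 0.16, adjusted p = 0.00708). WNT8A read 51.1 and 53.4 CPM on day 1, 57.7 and 53.7 on day 4 and 31.4 and 32.8 on day 5, with the smallest p of the 9 (-0.70 ± 0.12, adjusted p = 1.43e-05). At these 4 genes, picked because they were called lower, no day 5 library overlapped day 1. Without WT day 1 replicate b TBXT (-0.56) and EOMES (-0.32) lost their calls, as TBXT did without WT day 5 replicate a (-0.76) and MIXL1 without WT day 1 replicate a (-0.37) or WT day 5 replicate b (-0.35). With regions within 1 kb only, WNT8A (-0.12) and EOMES (-0.32) were not called.

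**Figure D4:**
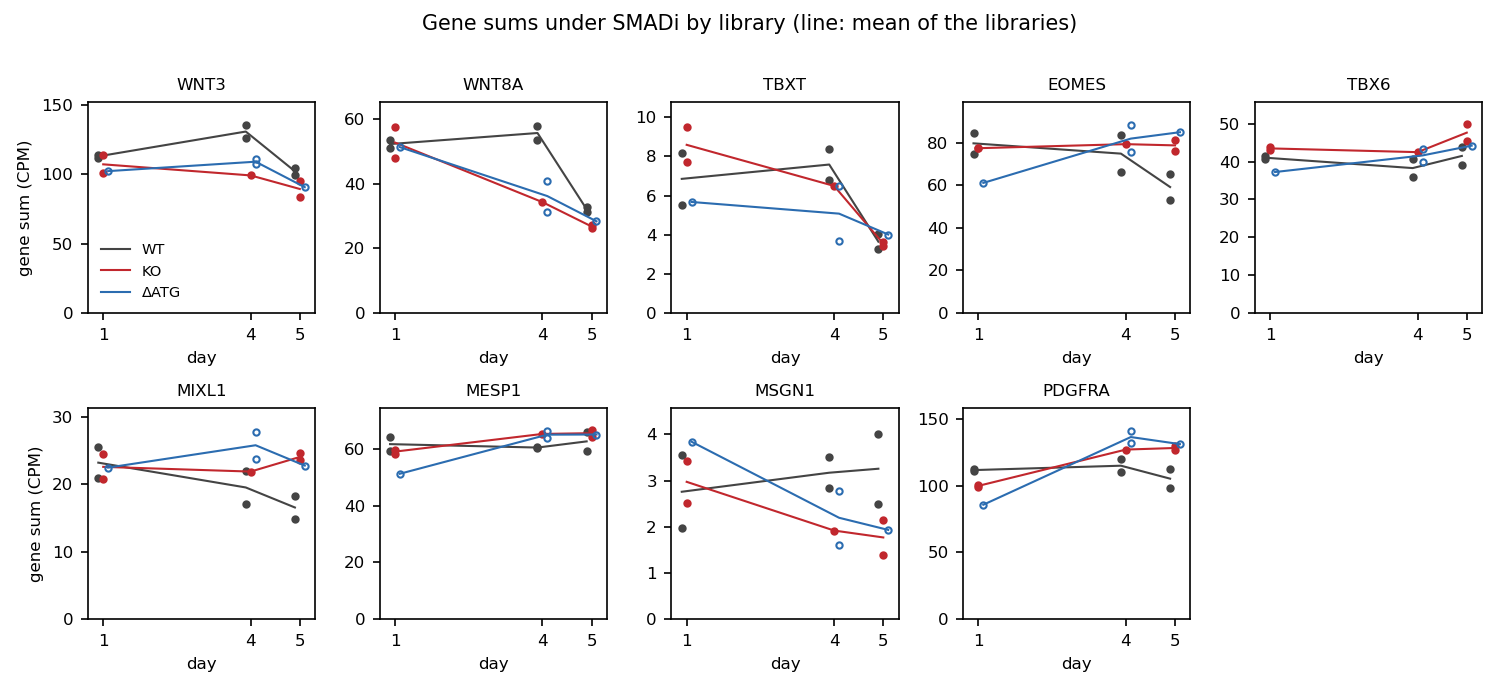
Gene sums (CPM, y axis from 0) of 9 genes against the day of SMADi (x axis), with 1 point per library and lines through the means of WT (grey), KO (red) and ΔATG (blue, open points). On day 4 the KO and ΔATG libraries of WNT8A and WNT3 lie below both WT libraries, and on day 5 those of MIXL1 and EOMES lie above both.

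The mutant lines were lower than WT at WNT8A and WNT3 under SMADi. In KO 1 of 9 genes was higher (MIXL1) and 2 lower (background 45.0% of gene sums), and in DATG 1 higher (MIXL1) and 2 lower (background 34.1%), with the WT libraries shared. Neither count of called genes exceeds its background share. Without the library labelled KO day 1 replicate b, 0 genes were higher and 2 lower in KO. WNT8A read 57.6 and 47.9 CPM in KO on day 1, 34.3 in the single library of day 4 and 26.3 and 27.3 on day 5. DATG read 51.3 CPM on day 1, 41.0 and 31.4 on day 4 and 28.4 on day 5, so on days 4 and 5 both lines lay below WT and on day 1 they overlapped it. The differences were -0.32 ± 0.07 in KO (adjusted p = 0.000677), -0.27 ± 0.08 in KO without replicate b of day 1 (adjusted p = 0.00617) and -0.28 ± 0.08 in DATG (adjusted p = 0.00505). The KO call of WNT8A was lost without KO day 4 replicate b (-0.13), the only KO library of that day. That refit takes day 4 out of the mean for WT too, so it compares the other days only. Regions within 1 kb gave -0.11 in KO and 0.07 in DATG, neither called.

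WNT3 read 113.7 and 100.7 CPM in KO on day 1, 99.2 on day 4 and 95.2 and 83.6 on day 5, against 111.7 and 114.2, 135.6 and 126.1, and 99.9 and 104.5 in WT. KO lay below WT on days 4 and 5, with -0.23 ± 0.05 (adjusted p = 0.00022) and -0.20 ± 0.05 without replicate b of day 1 (adjusted p = 0.00277), and DATG had -0.19 ± 0.05 (adjusted p = 0.00267). MIXL1 read 23.6 and 24.6 CPM in KO and 22.8 in DATG on day 5 against 18.2 and 14.9 in WT, with 0.23 ± 0.09 in KO (adjusted p = 0.0399) and 0.28 ± 0.10 in DATG (adjusted p = 0.0239). Without replicate b of day 1 the KO value of MIXL1 was 0.19 ± 0.10 and not called (adjusted p = 0.138). With the replicate letter as a block MIXL1 in DATG was 0.26 and not called (adjusted p = 0.0536). DESeq2's Wald test called MIXL1 in neither line (adjusted p = 0.0922 and 0.0634).

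The remaining genes had no genotype call under SMADi by the rule. EOMES had 0.14 ± 0.06 in KO and PDGFRA 0.09 ± 0.04, or 0.14 ± 0.07 and 0.08 ± 0.05 without replicate b of day 1, and scaling over all regions made both calls in KO (0.18 and 0.12), with TBX6 (0.19). Without the single DATG library of day 1, which takes day 1 out of the mean for WT too, EOMES (0.32) and PDGFRA (0.28) were higher in DATG. TBXT had 0.01 ± 0.17 in KO (0.06 ± 0.18 without replicate b of day 1) and -0.25 ± 0.18 in DATG, and with the further regions nearer a lncRNA end it was lower in both (-0.33 in each line).

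Of the 84 regions under SMADi, 11 rose and 18 fell in WT from day 1 to day 5 (background 40.9% of regions). KO was higher at 12 and lower at 17 (background 39.5%), or 9 and 16 without replicate b of day 1, and DATG was higher at 5 and lower at 12 (background 28.5%). Within 1 kb of a gene end 6 of 24 regions were higher in KO and 0 lower. Farther away 6 of 60 were higher and 17 lower. This split of KO is given with replicate b of day 1 only. In DATG 0 of the 24 were called. Without the single DATG library of day 1, which takes day 1 out of the mean for WT too, 33 of the 84 were called in DATG. Past the end of WNT8A lay the region with the smallest p in DATG, which overlaps in position one of the pair that was higher in both lines under BMP4. At chr5:138095186-138095386 WT read 8.41 and 10.2 CPM on day 1, 7.58 and 6.04 on day 4 and 2.50 and 1.19 on day 5. KO read 9.64 and 8.19 on day 1, 0.539 on day 4 and 0.358 and 0.255 on day 5, and DATG read 5.98, then 0.739 and 0.484, and 0 in the day 5 library, where 3 counts allow up to 0.139 CPM. From day 4 on both lines lay below WT, with -2.04 ± 0.25 in KO (adjusted p = 2.31e-08; 2.75e-07 without replicate b of day 1). DATG was called lower too (adjusted p = 1.90e-10), with a fitted size that depends on that 0. At chr5:138095643-138095843 the difference was -1.07 ± 0.17 in KO (-1.06 ± 0.18 without replicate b of day 1) and -1.17 ± 0.18 in DATG.

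WNT3 and PDGFRA also had regions that were lower in both lines. Inside WNT3, at chr17:46772588-46772788, the region with the smallest p in KO, WT read 8.89 and 10.1 CPM on day 1, 15.2 and 12.8 on day 4 and 4.85 and 5.43 on day 5, against 2.22 on day 4 and 2.79 and 1.47 on day 5 in KO. KO lay below WT on both of these days, with -1.34 ± 0.16 (adjusted p = 1.29e-08, and 2.36e-07 without replicate b of day 1) and DATG at -1.41 ± 0.17 (adjusted p = 1.54e-08). Inside PDGFRA, at chr4:54276728-54276928, WT read 2.32 to 4.98 CPM, KO 0.319 to 2.04 and DATG 0.603 to 2.08, so that WT lay above both lines with no overlap while the lines overlapped each other. The differences there were -1.49 ± 0.24 in KO, -1.37 ± 0.26 without replicate b of day 1 and -1.57 ± 0.27 in DATG. The most open region of PDGFRA, 4117 bp inside its start, was instead higher in both lines. On days 4 and 5 it read 14.9 and 14.8, and 16.6 and 20.9 CPM in WT, against 22.96, and 24.8 and 30.6 in KO and 23.1 and 24.9, and 23.9 in DATG. The lines did not overlap WT on those days, and the differences were 0.42 ± 0.09 in KO (0.37 ± 0.10 without replicate b of day 1) and 0.35 ± 0.10 in DATG.

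TBXT had 2 of its 3 regions called in KO under SMADi, in opposite directions, and TBX6 had its start called. The TBXT region inside the gene (chr6:166160691-166160891) read 0.841 and 0.715 CPM in WT on day 1, below 1.80 and 1.03 in KO and 1.91 in DATG. On day 4 it read 3.19 and 2.62 CPM in WT, 0.202 and 0.121 in DATG and 0 in the KO library, where 3 counts allow up to 0.202 CPM. It was called lower in KO (adjusted p = 7.11e-06, and 4e-05 without replicate b of day 1) and DATG (adjusted p = 0.000301) over the mean of days, with both lines below WT on days 4 and 5 and above it on day 1. The TBXT region 483 bp before the start (chr6:166169038-166169238) was higher in KO by 0.62 ± 0.22 (adjusted p = 0.0253; 0.69 ± 0.24 and 0.0230 without replicate b of day 1) and had 0.48 ± 0.24 in DATG (adjusted p = 0.130). At the start of TBX6 (chr16:30091911-30092111) KO was higher by 0.31 ± 0.08 (adjusted p = 0.00337, and 0.0132 without replicate b of day 1), with 38.9 and 38.8 CPM on day 5 against 34.6 and 25.5 in WT. MIXL1 had 2 of its 4 regions called higher in KO and 0 lower (background 39.5% of regions). Without replicate b of day 1, edgeR gave 0.45 ± 0.18 (adjusted p = 0.0533) at the MIXL1 region over the start (chr1:226223561-226223761). Its neighbour inside the gene (chr1:226223784-226223984) then had 0.44 ± 0.17 (adjusted p = 0.0415). The other MIXL1 regions had -0.22 ± 0.20 and 0.00 ± 0.17, neither called.

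Other pathway genes under SMADi went both ways, where 45.0% of all gene sums were called in KO, 39.2% in KO without replicate b of day 1 and 34.1% in DATG. Of the 20 signal genes FZD2, FZD7 and SFRP1 were higher and CRIPTO, CER1 and BMP4 lower in DATG, with CRIPTO, the NODAL co-receptor, at -1.06 ± 0.09. In KO 4 of the 20 were higher and 6 lower, with the same counts without replicate b of day 1. Of 21 genes of streak and nascent mesoderm 8 were higher in DATG, among them SP5, a WNT target (0.39 ± 0.06), and LFNG, a Notch modifier (0.44 ± 0.04), and KDR was lower (-0.34 ± 0.08). In KO 9 of the 21 were higher and 1 lower, again with the same counts without that library. Of the PDGF list PDGFRB (0.43 ± 0.06) and PDGFB were higher and PDGFA lower (-0.40 ± 0.08) in DATG, and 2 were higher and 1 lower in KO (1 and 1 without that library).

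Markers of other states moved with the genotype under SMADi too. Of all gene sums 45.0% were called in KO, 39.2% in KO without replicate b of day 1 and 34.1% in DATG. In DATG 6 of 8 pluripotency genes, CRIPTO again one of them, were lower and 1 higher, and 3 of 8 neural genes were higher and 1 lower. In KO 6 of the 8 pluripotency genes were lower and 1 higher, with or without replicate b of day 1, and 5 of the 8 neural genes were higher and 1 lower (4 and 1 without it). Summed pluripotency levels read 555.5 to 715.1 CPM in WT, 574.3 to 620.4 in KO, with or without that library, and 556.9 to 618.1 in DATG. Summed neural levels read 676 to 843.7 CPM in WT, 691.6 to 935.9 in KO (from 715.4 without that library) and 622.6 to 909.8 in DATG. The part of these markers in the differences of the genes was not tested.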

How the data were processed

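The deposited tables hold raw counts of ATAC-seq reads in regions of 1 fixed length, 1 table each for day 0, BMP4 and SMADi. The build GRCh38 and the peak caller MACS2 come from the submitters' processing notes, while for the aligner and the counting tool the sources used here give no name. Libraries were made with an Active Motif kit and 10 PCR cycles, per the labels' protocols. Region ends were linked to RefSeq genes (GRCh38.p14), and each gene sum adds its regions' counts.

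The counts as deposited by the authors were tested with edgeR 4.0.16 in R 4.3.3 (TMM scaling, filterByExpr, robust quasi-likelihood F test, Benjamini-Hochberg adjustment over all genes or regions of a table). Every linked gene passed the filter. Each table was fitted over all its groups, without a replicate block. Genes of the lists were named where called, with 2 to 4 examples. All 10 members were described under BMP4 in WT and, over the mean of days, in each line against WT. At day 0 and under SMADi differences were given for some members only, and none for MESP1 and MSGN1. Single regions were also described for some members only. Most of these had the highest mean WT level, lay nearest the gene's start (or end where no strand is given) or were called with the smallest p in a comparison. Likeness was taken over genes with a mean count of at least 50, leaving out genes within 1 Mb. The members and the lists were chosen with earlier results of these data known.

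In simulated counts, KO against WT recovered 96% of genes changed by 1 log2 unit at day 0, 100% under BMP4 and 100% under SMADi, and 48%, 100% and 82% of those changed by 0.5. The changed genes were drawn from those with a mean count above 50, with 1 spread set for all genes of a table. Counts of MSGN1, and of TBXT under BMP4, were mostly lower, so these shares do not cover them. Alternatives were DESeq2 1.42.0, other scalings (that over all regions chosen after seeing the data), other link distances, protein-coding genes only, no filter, a replicate block and each library left out. Replicates differed by more than sampling noise (chi-square per degree of freedom 1.03 to 3.11).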

Additional observations from a re-analysis of the deposited data

Results flagged for a closer look

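EOMES changed differently from day 1 to day 5 of BMP4 in KO and in WT. The test of that difference itself, edgeR's quasi-likelihood interaction term, gave 0.40 ± 0.09 (adjusted p = 0.00409), with WT at 113.9 and 108.5 CPM on day 1 and 106.0 and 108.2 on day 5 and KO at 103.1 and 103.4, then 132.1 and 130.4. MESP1 differed between the mutant lines under BMP4. KO against DATG over the mean of days was -0.17 ± 0.04 (adjusted p = 0.00221), with both KO libraries below both DATG libraries on days 2, 3 and 4.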

How the results depend on the processing

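Of 58 called values of the 10 genes, recomputed 517 times under other settings, 434 kept direction and call, 70 lost the call and 13 turned direction. Of 1590 refits with 1 library left out, 1501 kept the call, 89 lost it and 0 turned. Of 165 values not called, 26 of 1469 recomputed values became calls in the same direction and 4 became calls in the other. Changes of sign that were called in neither fit are not counted as turned. The cause of the changes was not tested.

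With links within 1 kb, where fewer regions enter, the genes called were 3 for WT day 5 against day 1 of BMP4, 2 for day 2 against day 1, 1 for day 5 against day 2, 2 for DATG against WT, 0 for KO against DATG and 0 for the KO interaction, and under SMADi 2 for WT, 1 for KO and 1 for DATG. The day-by-day calls fell from 21 to 6, and to 10 by DESeq2's Wald test, which also called 5 rather than 11 regions in DATG under BMP4. With protein-coding genes only, WT day 2 against day 1 had 8 genes called and day 5 against day 2 had 5. With scaling over all regions, the KO interaction had 2 (PDGFRA added at -0.35) and KO under SMADi had 6, split 4 higher and 2 lower. Total counts split WT day 2 against day 1 as 5 and 1, KO under SMADi as 0 and 2, the BMP4 WT regions as 13 higher and 17 lower, and the SMADi KO regions as 8 and 20.

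Within 1 kb, these values turned: EOMES in DATG on day 5 (-0.0377), PDGFRA in DATG (0.0135) and in KO over the mean of days (0.19), on day 2 (0.39) and on day 5 (0.17), MESP1 in KO on day 5 (0.0380), and WNT8A in DATG under BMP4 (-0.0177), in DATG under SMADi (0.0735) and in KO under BMP4 (-0.29). Within 10 kb, PDGFRA in WT from day 1 to day 5 was -0.00679. With protein-coding genes only, MSGN1 in KO was 0.0947 over the mean of days, 0.18 on day 3 and 0.25 on day 5, and -0.0584 in WT from day 2 to day 5. TBXT was then -0.20 in KO under BMP4, -0.33 in KO under SMADi and 0.31 in WT by day 2.

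With 1 library left out, genes called ran from 2 to 6 (WT day 5 against day 1 of BMP4, with 2 without WT day 1 replicate a or WT day 5 replicate b), 3 to 5 (day 2 against day 1, with 3 without WT day 2 replicate b), 1 to 2 (KO against DATG, with MESP2 added) and 1 to 2 (the KO interaction, with PDGFRA added). Under SMADi they ran from 2 to 4 in WT (2 without WT day 1 replicate b), 1 to 5 in KO (1 without KO day 4 replicate b, 5 without WT day 4 replicate a or WT day 5 replicate b) and 2 to 5 in DATG (5 without the day 1 library), and regions from 19 to 31 in WT, 20 to 31 in KO and 14 to 33 in DATG. Where the left-out library was the only one of its group under SMADi, its day dropped out of the mean for WT too. Those refits compare the remaining days and are not the same comparison with 1 library less. For BMP4 regions the refits without 1 library were not run.

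The protocols do not say whether letters a and b pair the samples, and the main fits did not pair them. Under BMP4 33 of 105 pairs of groups had same-letter deviations correlated above 0.1, under SMADi 2 of 15 and at day 0 0 of 3. The replicate block left every count of genes called as it was except 2 rather than 3 in DATG under SMADi, where MIXL1 had 0.26 (adjusted p = 0.0536). Low counts limit TBXT, MSGN1 and MESP2 most, each with 1 region under BMP4.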
